A study of Mus musculus with 4 samples.

Results

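The genes described here encode enzymes that handle foreign chemicals and reactive aldehydes, and their near relatives that act on steroids, vitamin D and other endogenous molecules. They were chosen by name: every gene on the array whose symbol begins with Cyp followed by 1, 2 or 3, or with Gst, Sult, Fmo, Aldh, Akr, Ces or Nqo, except 9 relatives (Cyp2e1, Gsta2, Gsta3, Gsta4, Aldh1a1, Aldh1a7, Akr1b3, Akr1c18 and Ces1g). The rule gave 86 of the 9890 genes on the array, each with 1 probe, and 1 of the 86, Fmod, is caught by its letters only, since it encodes a matrix proteoglycan. The rule itself reads names only, but the list and its 9 exceptions were set with earlier results of these data known.

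Most of these enzymes work in sequence. Cytochromes P450, flavin monooxygenases, carboxylesterases and the enzymes that oxidise or reduce aldehydes, ketones and quinones expose or create a reactive group on a molecule. Glutathione transferases and sulfotransferases then attach a water-soluble partner, and organic anion carriers of the proximal tubule help to move the products into urine. The renal proximal tubule is, after the liver, a main site of this chemistry, and its vitamin D hydroxylases set the level of the active hormone.

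RNA was taken from renal cortex, and all mice were males of the C57BL/6J background aged 20 weeks. The 4 groups were nondiabetic ICAM-1+/+ mice given citrate buffer only (ND-WT), ICAM-1+/+ mice made diabetic with streptozotocin (DM-WT), nondiabetic ICAM-1-/- mice given buffer (ND-KO) and diabetic ICAM-1-/- mice (DM-KO). Streptozotocin, a toxin of the pancreatic beta cell, was injected once at 200 mg/kg at 8 weeks of age, only mice with blood glucose above 16 mmol/L were kept, and kidneys were taken 12 weeks after injection. ICAM-1 is an adhesion molecule that leukocytes use to leave the blood, and the knockout line lacks it from conception in all cells. The design thus asks what diabetes does to cortical gene expression with and without this molecule. There were 5 mice in each group according to the labels, yet each group has 1 array, and whether RNA was pooled is not stated. Each group also lay on a slide of its own, so slide and group cannot be told apart.

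With 1 array per group no difference between 2 arrays has a replicate check, and it is given by its size on the log2 scale. Values below are normalized log2 intensities of 1-colour CodeLink arrays, always in the order ND-WT, DM-WT, ND-KO, DM-KO. A constant of 50 was added to every background-corrected intensity, so differences of dim probes are understated. Tests come from limma fits across all genes, with additive terms for diabetes and genotype, so the spread of a gene is how far its 4 values depart from additivity (1 residual degree of freedom). limma draws this spread toward a value common to all genes (SD 0.0699, weighted as 3.17 degrees of freedom, with all spots). An SE below is thus not a gene's own spread alone. On the DM-WT array the spots in the last columns of the upper block were defective, so each fit was also made without the spots printed there, with the normalization repeated. Between repeated spots of 1 bacterial control probe the SD was 0.0606 log2 units, which covers spot-to-spot error only. The targeted transcript, Icam1, was not analysed here and gives no check of the genotypes. The DM-WT array also stood apart in signal. Its median background-subtracted intensity was 37.7, against 43.5 to 46.3 on the others, its share of usable gene spots was the lowest (62.8%, others up to 66.2%), and its bacterial control level was 0.557 of that on ND-WT, against 1.27 and 1.20 on ND-KO and DM-KO. The part of this in the results that rest on DM-WT was not tested. All 11 proximal tubule markers on the array were measured on all 4 arrays, with median diabetes differences of -0.10 in WT and -0.13 in KO. Of 5 thick limb and distal tubule markers, with medians of 0.53 and 0.32, Calb1 alone passed and rose (limma coefficient 0.80, adjusted p = 0.0178). Umod, another of the 5, differed by 0.16 in WT and -0.44 in KO. The 1 proximal straight marker, Atp11a, fell (-0.50, limma adjusted p = 0.0407). Calb1 and Atp11a passed without the defective columns only. The part of these tubule segments in the results was not tested. Of 3 podocyte markers, 2 were not above background on any array. Macrophage markers were higher on the DM-WT array, where the summed linear level of the 5 measured was 1534 against 858, 896 and 1155 on ND-WT, ND-KO and DM-KO, and their part in the results on the DM-WT array was not tested. In whole cortex, fewer cells of a type and less RNA per cell cannot be told apart.

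Of the 86 genes, 52 were measured on all 4 arrays, which is 60.5%, against 59.7% of all genes. A further 3 (Cyp2a12, Cyp2c38 and Gstm3) were measured on 2 or 3 arrays, 3 (Cyp2b13, Cyp2c55 and Aldh1b1) on 1, and 28 on none. The classes differed in this respect. All 3 flavin monooxygenases, both Nqo genes, 7 of 8 aldo-keto reductases and 10 of 12 glutathione transferases were measured on all 4 arrays. Among P450 of families 1 to 3, the classic drug-metabolising enzymes, 12 of 25 were, and among sulfotransferases 4 of 11. Genes best known from liver and gut, such as Cyp1a2, Cyp2b10, Cyp2c29, Cyp2c37 and Cyp3a11, were not well above background on any array, nor were Cyp2b9, Cyp2c39, Cyp3a13 and Cyp3a16. The same held for the steroid-synthesis enzymes Cyp11a1, Cyp17a1 and Cyp21a1, for which the adrenal gland is a main source, and for 3 of 6 adrenal markers (Star, Hsd3b1 and Fdxr). The other 3, the medullary genes Th, Pnmt and Chga, were measured on all 4 arrays. Also not above background on any array were Cyp26a1, Aldh1a2, Aldh1a3, Aldh1l1, Aldh18a1, Akr1cl, Ces1c, Gstm6, Fmod, Sult1c1, Sult1e1, Sult2a2, Sult2b1, Sult3a1, Sult4a1 and Sult5a1. The spots of Cyp26a1 and Aldh18a1 lay in the defective columns, as did that of Aldh2, which was measured on all 4 arrays. Not above background is a limit of the array, not evidence that a gene is silent. None of the genes measured on some arrays only had a bound of 1.5-fold or more in any comparison.

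**Figure D1:**
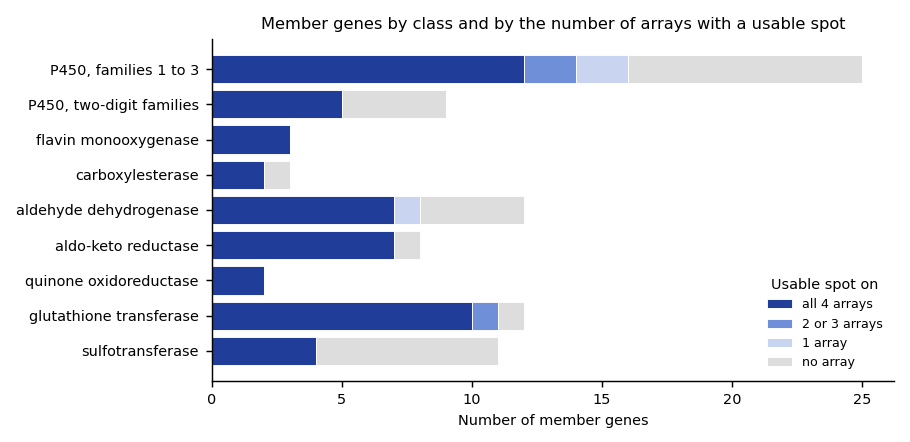
Horizontal bars give the number of genes per enzyme class, split by the number of arrays on which the spot was usable; Fmod is left out. Aldo-keto reductases, flavin monooxygenases and glutathione transferases are nearly all dark blue (7 of 8, 3 of 3 and 10 of 12), while P450 of families 1 to 3 and sulfotransferases are mostly not (12 of 25 and 4 of 11).

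Few of these genes differed by much between diabetic and nondiabetic wild-type cortex, and those that did went in both directions. Of 52 measured on both the DM-WT and ND-WT arrays, 1 was at least 1.5-fold higher (Cyp24a1; all genes 1.75%) and 1 at least 1.5-fold lower (Ces1e; all genes 0.876%). With median scaling in place of quantile normalization the higher count was also 1 and the lower count 6, and the deposited value table gave counts of 1 and 4. With median scaling the median over all genes was -0.08 in this comparison, and 32.2% of all genes were higher. Shares of all genes at the limits used here were computed with quantile normalization only. Differences of at least 0.3 log2 units in either direction were seen for 15 of the 52, or 28.8%, against 11.2% of all genes. Of these, 7 were higher (all genes 6.31%) and 8 lower (all genes 4.84%), and the median over the 52 was 0.06, against 0.00 over all genes. The median over the 52 reversed sign under both other scalings, so the list had no overall direction that held. It was -0.10 with median scaling and -0.03 in the deposited value table. The median over all genes was below 0 there too, at -0.08 and -0.04. In KO cortex none of 55 genes reached 1.5-fold in either direction (all genes 0.537% higher and 0.505% lower). There, 8 of 55, or 14.5%, differed by at least 0.3, against 5.57% of all genes. Of these, 5 were higher (all genes 3.2%) and 3 lower (all genes 2.37%), and the median over the 55 was 0.00. The 9 relatives that the name rule leaves out differed more, but those exceptions were set with earlier results of these data known. Among those 9, 4 were at least 1.5-fold higher and 3 lower in WT, and 3 higher and 3 lower in KO. The low counts at 1.5-fold thus describe this list and not its enzyme families.

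The 4 arrays give 2 diabetes comparisons that share no array. Of the 52 genes, 38, or 73.1%, differed in the same direction in both, with 21 higher in both and 17 lower in both, against 59.9% of all genes. With median scaling 12 were higher in both and 22 lower in both, and the deposited value table gave 16 and 23. In total 34 and 39 of the 52 then differed in the same direction. The share of all genes was not computed under these scalings, so whether the excess over all genes holds there is not known. Pearson's r between the 2 sets of differences was 0.68 over the 52 genes and 0.48 over all 5909 measured genes, and Spearman's rho was 0.65 and 0.35. Genes are not independent replicates, all 4 arrays were normalized together, and these values only describe the arrays. Differences above 0.3 in both genotypes were seen for 4 genes, which is 7.69% of 52 against 1.76% of all genes: Cyp2d26, Cyp24a1, Akr1c13 and Gsto1. Ces1d, Ces1e and Fmo5 exceeded 0.3 downward in both, which is 5.77% against 1.42%.

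**Figure D2:**
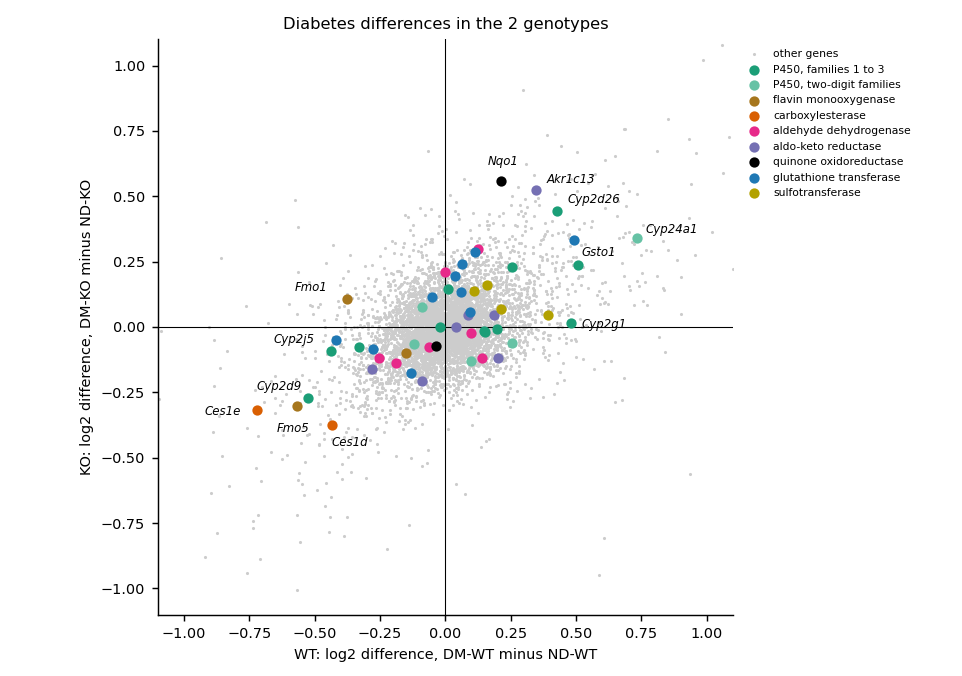
Each point is a gene measured on all 4 arrays, with its log2 diabetes difference in WT on the horizontal and in KO on the vertical axis; grey points are the other genes, coloured points the enzyme classes, and 34 of 5909 genes lie outside the axes of 1.1. Cyp24a1, Cyp2d26, Akr1c13 and Gsto1 lie to the upper right, and Ces1e, Ces1d and Fmo5 to the lower left.

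In the limma fit with all spots, none of 55 genes tested passed an adjusted p of 0.05 for diabetes (Benjamini-Hochberg over 6507 genes, of which 1, or 0.0154%, rose and none fell). That 1 gene was Aldh1a1, which the name rule leaves out (limma coefficient 1.70, adjusted p = 0.0482). An unadjusted p under 0.05 was reached by 13 of the 55, or 23.6%, against 12.7% of all genes. Of these 13, Cyp1b1, Cyp2d22, Cyp2d26, Cyp24a1, Aldh3a1, Akr1c13, Gsto1 and Nqo1 were higher and Cyp2d9, Akr7a5, Ces1d, Ces1e and Fmo5 lower. Without the spots in the defective columns, 1 of 54 passed, Cyp2d26, which rose (all genes 0.805% rose and 0.692% fell). In that fit 16 of the 54, or 29.6%, had an unadjusted p under 0.05, against 14.8% of all genes.

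Cyp2d26 belongs to the P450 subfamily whose human member CYP2D6 metabolises many drugs. It read 10.31, 10.73, 10.08 and 10.52. Both diabetic arrays were above both nondiabetic ones, and both KO arrays were below the WT array of the same treatment. The diabetes differences were 0.43 in WT and 0.44 in KO, which is 1.34-fold and 1.36-fold. The limma coefficient was 0.44 (SE 0.06, adjusted p = 0.164) with all spots and 0.43 (SE 0.07, adjusted p = 0.0482) without the defective columns, so the call rests on leaving those spots out. Cyp2d26's own spot is not among them. Under median scaling its WT difference was 0.20 and its KO difference 0.37.

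Its chromosomal neighbours Cyp2d22 and Cyp2d9 were also measured. Cyp2d22 read 6.85, 7.35, 6.68 and 6.92, highest on the DM-WT array, with diabetes differences of 0.51 and 0.24 (adjusted p = 0.265 in limma). Cyp2d9, a testosterone hydroxylase that is more abundant in males, went the other way and read 10.36, 9.83, 10.08 and 9.81. Both diabetic arrays were below both nondiabetic ones, by 0.52 in WT and 0.27 in KO, and the limma coefficient was -0.40 (SE 0.09, adjusted p = 0.242). Probes of such similar genes may share signal. Beside these values, of 10 androgen-dependent kidney genes on the array 6 fell and 1 rose with diabetes in limma without the defective columns (all genes 0.692% and 0.805%), and none passed with all spots. Their median differences were -0.71 in WT and -0.67 in KO, and their part in the Cyp2d9 values was not tested.

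The 250 bases upstream of the annotated start of Cyp2d26 and Cyp2d9 are shown because these neighbours differed in opposite directions; that of Gstp1, described further on, is shown as a window with a motif. Sequences are from RefSeq on build GRCm38.p6, 5′ to 3′ on the gene's strand, at chr15:82794246-82794495 (minus), chr15:82452127-82452376 (plus) and chr19:4037913-4038162 (minus). Capitals mark the xenobiotic response element core GCGTG.
Cyp2d26: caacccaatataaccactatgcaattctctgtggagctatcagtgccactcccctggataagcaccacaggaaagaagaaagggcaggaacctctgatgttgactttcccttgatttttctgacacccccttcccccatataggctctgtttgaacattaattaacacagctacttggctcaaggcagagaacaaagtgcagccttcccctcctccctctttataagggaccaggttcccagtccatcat
Cyp2d9: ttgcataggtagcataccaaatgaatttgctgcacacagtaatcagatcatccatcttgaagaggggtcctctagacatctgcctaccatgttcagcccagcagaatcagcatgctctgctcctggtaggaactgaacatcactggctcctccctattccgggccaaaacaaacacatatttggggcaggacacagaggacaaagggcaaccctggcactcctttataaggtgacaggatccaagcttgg
Gstp1: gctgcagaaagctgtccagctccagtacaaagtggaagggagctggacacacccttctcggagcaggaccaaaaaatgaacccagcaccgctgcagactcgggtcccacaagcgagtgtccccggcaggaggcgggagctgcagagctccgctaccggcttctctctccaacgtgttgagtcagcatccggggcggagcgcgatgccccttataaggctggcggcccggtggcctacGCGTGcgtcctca

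On both strands, 17 of the 70 genes with a window (24.3%) held GCGTG, against 30.9% of 27025 genes. The antioxidant response element core TGACNNNGC was held by 5 of 70 (7.14%: Akr1cl, Aldh1a2, Aldh9a1, Gstm5 and Gstm7), against 11.5% of genes. Neither letter pattern was more frequent here than among all windows of this length, and Cyp2d26, Cyp2d9, Ces1e and Nqo1 held neither. A match of the second can share its last 2 bases with the first. A match is a description of letters and not a binding site.

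Among the remaining P450 of families 1 to 3, Cyp2j5, an arachidonic acid epoxygenase abundant in proximal tubule, read 11.75, 11.31, 11.79 and 11.70, with the DM-WT array alone low. Its diabetes difference was -0.44 in WT and -0.09 in KO, and under other processing settings these were as low as -0.65 and -0.24. Cyp2g1, known from olfactory mucosa, read 6.30, 6.78, 6.73 and 6.75, and here the ND-WT array alone was low. Cyp1b1, an extrahepatic oxidase of steroids and polycyclic hydrocarbons, read 7.01, 7.26, 7.27 and 7.50, with differences of 0.25 and 0.23. Its close relative Cyp1a1 stayed between 6.24 and 6.39. That is close to the lowest usable values of the arrays, 5.99 to 6.06, where differences are understated. These genes were chosen after their values were seen. None of them passed the test in either limma fit.

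Cyp24a1, the mitochondrial hydroxylase that inactivates vitamin D hormone, had the highest diabetes difference of all 52 genes in WT. It read 6.80, 7.53, 7.21 and 7.55. The ND-WT array was lowest, and both diabetic arrays were at nearly the same level. The difference was 0.73 in WT, or 1.66-fold, and 0.34 in KO, or 1.27-fold (limma coefficient 0.54, SE 0.11, adjusted p = 0.232). With a smaller added constant of 16 these differences were 0.97 and 0.43, since the probe was dim. Cyp27b1, which makes the active hormone, read 6.74, 6.62, 6.59 and 6.53, with diabetes differences of -0.12 and -0.07. Cyp27a1, a sterol hydroxylase, read 8.16, 8.41, 7.95 and 7.90. It was lower on both KO arrays, by 0.20 without and 0.52 with diabetes.

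Both measured carboxylesterases, lipid and ester hydrolases of the endoplasmic reticulum, were lower on the diabetic arrays. Ces1e read 8.32, 7.60, 8.11 and 7.80. Its differences were -0.72 in WT, 1.65-fold lower, and -0.32 in KO (limma coefficient -0.52, SE 0.12, adjusted p = 0.246). Ces1d, a triacylglycerol hydrolase, read 10.47, 10.03, 10.59 and 10.22. Both diabetic arrays were below both nondiabetic ones for each gene, and for Ces1d the differences of -0.44 and -0.37 were close in size (limma coefficient -0.41, SE 0.06, adjusted p = 0.172 with all spots and 0.0643 without the defective columns). The genes are chromosomal neighbours of each other and of Ces1c, and their probes may share signal.

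Flavin monooxygenases oxidise nitrogen and sulfur atoms of drugs and nutrients. Fmo5, which oxidises ketones to esters, read 6.74, 6.17, 6.56 and 6.26, lower on both diabetic arrays, by 0.57 in WT and 0.30 in KO. Its limma coefficient was -0.43 (SE 0.09, adjusted p = 0.226), and with an added constant of 16 the WT difference was -0.93. Fmo1, the main renal form in mice, read 10.65, 10.27, 10.44 and 10.54. It was lower on the diabetic array in WT (-0.38) and not in KO (0.11), although the KO difference was -0.03 in the deposited value table. Fmo2 read 7.48, 7.33, 7.60 and 7.50, a span smaller than those of the other 2.

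**Figure D3:**
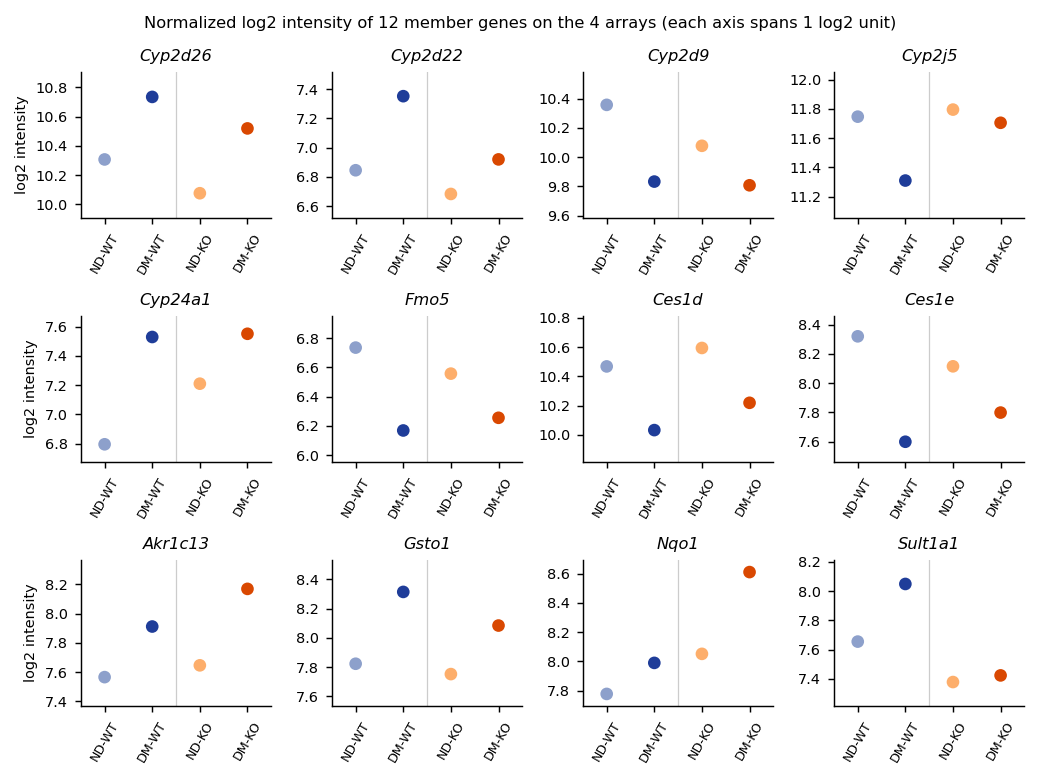
Normalized log2 intensity on each of the 4 arrays for 12 genes; each panel has its own axis, all spanning 1 log2 unit, the grey line separates WT from KO, and there are no error bars because each group has 1 array. Cyp2d26, Cyp24a1, Akr1c13 and Gsto1 are higher, and Fmo5, Ces1d and Ces1e lower, on the diabetic array of both genotypes, while Nqo1 is highest on DM-KO (8.61) and Sult1a1 on DM-WT (8.05).

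Aldehyde dehydrogenases turn aldehydes into acids. In WT the values of this class depend on the scaling. Across the 7 measured on all 4 arrays the diabetes difference ranged from -0.25 (Aldh3a2) to 0.14 (Aldh3b1) in WT and from -0.14 (Aldh9a1) to 0.297 (Aldh3a1) in KO. None of the 7 reached 0.3 in any of the 4 comparisons. With median scaling, however, the WT differences of Aldh3a2, Aldh9a1 and Aldh6a1 were -0.47, -0.39 and -0.32, and the class median was -0.25 instead of 0.00. With an added constant of 16, that of Aldh3a1 in KO was 0.35. Aldh3a1, a detoxifier of lipid aldehydes, had the highest coefficient of the class and read 7.86, 7.99, 7.74 and 8.04. Aldh3a2, the fatty aldehyde dehydrogenase and its chromosomal neighbour, had the lowest and read 9.54, 9.28, 9.65 and 9.53. Aldh2, the mitochondrial acetaldehyde dehydrogenase, read 10.64, 10.64, 10.38 and 10.59, and its spot lay in the columns that were defective on DM-WT. Aldh6a1, of valine breakdown, had the smallest span of all 52 genes, 0.104. By contrast, the 2 retinaldehyde dehydrogenases that the name rule leaves out, Aldh1a1 and Aldh1a7, differed by 1.67 and 1.03 in WT and by 1.73 and 1.39 in KO.

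Aldo-keto reductases reduce aldehydes and ketones, including steroids. The median WT diabetes difference of this class was 0.09, but -0.15 with median scaling and -0.04 in the deposited value table. Akr1c13 read 7.57, 7.91, 7.65 and 8.17. Both diabetic arrays were above both nondiabetic ones, by 0.35 in WT and 0.52 in KO (limma coefficient 0.43, SE 0.07, adjusted p = 0.185 with all spots and 0.0707 without the defective columns). Its chromosomal neighbours had another pattern. Akr1c20 read 6.46, 6.66, 6.58 and 6.46, and Akr1c21, a hydroxysteroid dehydrogenase prominent in mouse kidney, read 12.98, 13.02, 13.31 and 13.31. Akr1c21 thus showed diabetes differences of 0.04 and 0.00 and separated the arrays by genotype, but its diabetes differences depended on the processing. Across the settings checked they ranged from -0.20 to 0.04 in WT and from -0.14 to -0.0003 in KO. Its genotype differences ranged from 0.30 to 0.33 without diabetes and from 0.25 to 0.41 with it. Akr7a5, a reductase of succinic semialdehyde and toxic dialdehydes, read 9.93, 9.65, 9.94 and 9.78 and had the lowest coefficient of the class (-0.22, SE 0.07, limma adjusted p = 0.336).

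Nqo1, which reduces quinones and is a standard target of the stress-response factor NRF2, had the largest span of all 52 genes, 0.833. It read 7.78, 7.99, 8.05 and 8.61, and the DM-KO array stood above the other 3. The diabetes difference was 0.21 in WT and 0.56 in KO, and the limma diabetes coefficient was 0.39 (SE 0.10, adjusted p = 0.295). Nqo2, a related reductase that is not a standard NRF2 target, stayed between 7.43 and 7.62. Of 18 NRF2 target genes tested without the defective columns, 4 rose with diabetes (Ephx1, Cbr1, Cbr3 and Mgst1) and none fell (all genes 0.805% and 0.692%). With all spots none of 19 passed. That list includes Nqo1 and Gstm1, which did not pass. The median over its 18 genes measured on both arrays of a pair was 0.10 in WT and 0.18 in KO. NRF2 itself, Nfe2l2, read 9.31, 9.50, 8.97 and 9.20 and did not pass.

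Glutathione transferases couple glutathione to electrophiles, and the omega member Gsto1 also reduces dehydroascorbate and arsenic compounds. Gsto1 read 7.82, 8.31, 7.75 and 8.08. Both diabetic arrays were above both nondiabetic ones, by 0.49 in WT and 0.33 in KO (limma coefficient 0.41, SE 0.07, adjusted p = 0.196 with all spots and 0.0707 without the defective columns). Gstz1, the maleylacetoacetate isomerase of tyrosine breakdown, read 11.24, 10.82, 11.11 and 11.06, with the DM-WT array low, and had the lowest coefficient of the class (-0.23). The mu-class genes are chromosomal neighbours with similar sequences, and Gstm1, Gstm2, Gstm5 and Gstm7 had diabetes differences from -0.05 to 0.06 in WT and from 0.11 to 0.24 in KO. Over the class the median difference was 0.05 in WT (10 genes) and 0.11 in KO (11 genes). With median scaling the WT median was -0.13, and Gstm1, Gstm2, Gstm5, Gstp1 and Gstt1 were lower instead of higher there. The alpha-class gene Gsta2, which the name rule leaves out, differed by 1.06 and 1.08.

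All 4 measured sulfotransferases were higher on the diabetic array of both genotypes, by 0.05 to 0.39, but with median scaling Sult1d1 and Sult1c2 were lower in WT (-0.09 and -0.04), and none passed the test. Sult1a1, which sulfates phenols, read 7.66, 8.05, 7.38 and 7.42. Its diabetes difference was 0.39 in WT and 0.05 in KO, and both KO arrays were below both WT arrays. Sult1d1, a catecholamine and prostaglandin sulfotransferase of mouse kidney, read 12.21, 12.32, 11.97 and 12.10, with diabetes differences of 0.11 and 0.14.

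**Figure D4:**
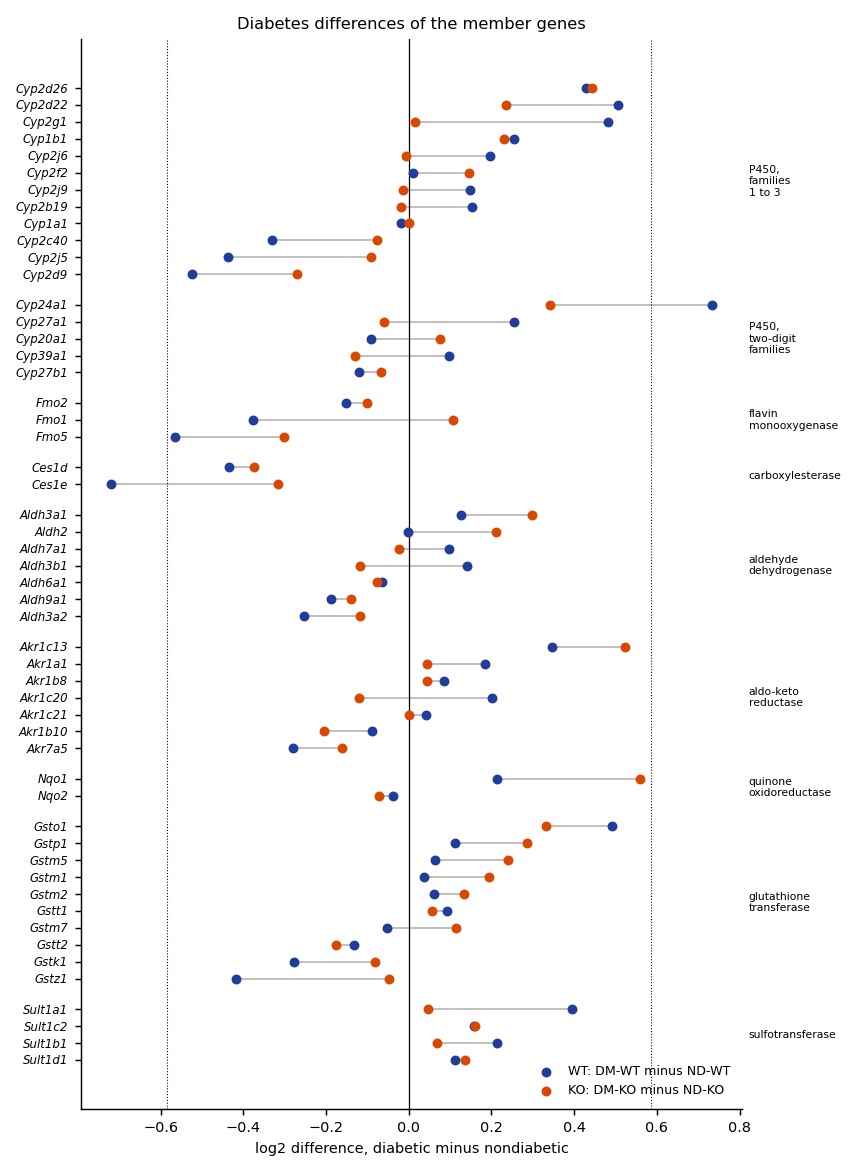
Log2 diabetes differences of the 52 genes measured on all 4 arrays, by class and ordered by their mean; blue points are WT, orange points KO, a grey line joins the points of a gene, and dotted lines mark 1.5-fold. Only Cyp24a1 (0.73) and Ces1e (-0.72) in WT lie beyond the dotted lines, and 38 of 52 genes have both points on the same side of 0 (34 with median scaling).

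Fewer genes differed between the genotypes on the nondiabetic than on the diabetic arrays. Of 54 genes measured on both nondiabetic arrays none reached 1.5-fold (all genes 0.176% higher and 0.432% lower) and 3 differed by at least 0.3 (5.56%, all genes 4.45%), 3 upward (all genes 2.11%) and 0 downward (all genes 2.33%). These were Cyp2g1 (0.43), Cyp24a1 (0.41) and Akr1c21 (0.33), all higher in KO. Between the diabetic arrays, Nqo1 was 1.54-fold higher in KO (1 of 53, all genes 0.77%) and Sult1a1 1.54-fold lower (1 of 53, all genes 1.05%), and 8 of 53 differed by at least 0.3 (15.1%, all genes 8.04%), 4 of them higher (all genes 3.6%) and 4 lower (all genes 4.44%). Whether the 2 genotype comparisons differ from each other was not tested. The diabetic comparison shares the DM-WT array with the diabetes comparison in WT. Genes that were lowest or highest on that array, such as Cyp2j5 and Cyp2d22, thus appear in both.

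No gene passed for genotype in either limma fit, where the lowest adjusted p was 0.392 (Akr1c21) with all spots and 0.204 (Sult1a1) without the defective columns. Over all genes 0.0307% rose and 0.0154% fell with all spots, and 0.0161% and 0.0805% without those columns. An unadjusted p under 0.05 was reached by 11 of 55 (20%), against 9.07% of all genes. Of these, Cyp1b1, Akr1c21, Gstm1, Gstp1 and Nqo1 were higher in KO, and Cyp2d22, Cyp2d26, Cyp27a1, Gstt2, Sult1a1 and Sult1d1 lower. Gstp1, the pi-class transferase, read 11.29, 11.40, 11.51 and 11.79, so that both KO arrays were above both WT arrays (coefficient 0.31, SE 0.07, limma adjusted p = 0.435). Gstm1 read 10.84, 10.88, 11.04 and 11.24 with the same order. Gstt2, a theta-class transferase, read 7.90, 7.77, 7.63 and 7.46, with both KO arrays below both WT arrays (coefficient -0.28, SE 0.06, limma adjusted p = 0.406). Gstp1, Gstm1 and Gstt2 were chosen after their values were seen.

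**Figure D5:**
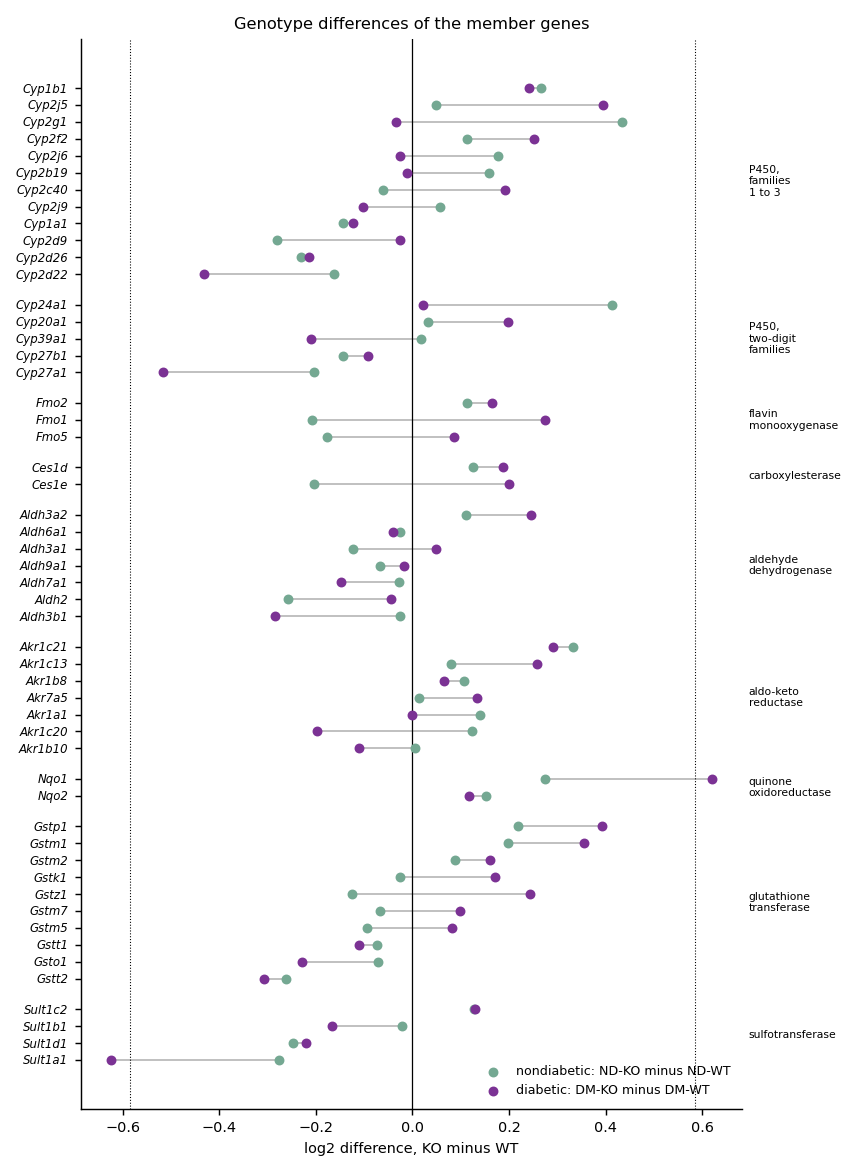
Log2 differences between KO and WT for the 52 genes measured on all 4 arrays, by class; green points are the nondiabetic and purple points the diabetic pair, a grey line joins the points of a gene, and dotted lines mark 1.5-fold. Nqo1 (0.62) and Sult1a1 (-0.63) in the diabetic pair lie beyond the dotted lines, and no gene of the nondiabetic pair does.

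Genes that supply or surround these enzymes were counted in lists of pathway members, in limma without the defective columns. In that fit 0.805% of all genes rose and 0.692% fell. The lists overlap with that of NRF2 targets above, and Mgst1, Ephx1, Cbr1 and Cbr3 are counted in both places. Among 11 genes of glutathione supply and related steps, Ltc4s (coefficient 1.00) and Mgst1 (0.57) rose and Ggct (-0.57) fell. Among 13 other oxidising, reducing and hydrolysing enzymes, 3 rose, among them the epoxide hydrolase Ephx1, with Cbr1 (0.61) and Cbr3 (0.51), and Hsd17b11 (-0.64) fell. Among the other conjugation enzymes described here, Acy1 (-0.58) and Acsm1 (-0.54) fell. None of 10 electron donors and cofactor enzymes passed, and their largest coefficients were those of Me1 (-0.41, adjusted p = 0.0707) and of Cyb5a, an electron donor to P450 (-0.40, adjusted p = 0.0941). None of 13 receptors and transcription factors passed, and the drug-sensing receptors Nr1i2 and Nr1i3 were not above background on any array. None of 11 xenobiotic transporters passed, where the largest coefficients were those of Slco3a1 (-0.61) and the organic anion carrier Slc22a6 (-0.25). With all spots none of the genes of these 6 lists passed.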

How the data were processed

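Cortex RNA was converted to biotin-labelled cRNA and read on 1 CodeLink array per group, per the labels. The deposited scanner tables hold each spot's mean intensity and local background intensity on a linear scale, with a quality mark, per the file headers. The deposited value table holds intensity too, and equals spot minus background divided by 1 constant per array (43.9, 38.1, 45.0 and 46.9). How the authors chose the constant is not given in the sources used here. The log2 values were computed from the deposited intensity columns with limma 3.58.1 under R 4.3.3: normexp with an offset of 50, log2, quantile normalization over 4 arrays. Spots marked poor were set to missing, and a gene counted as measured where its spot was marked usable. The number of arrays limits the precision. Samples were grouped by their titles. The additive limma fit covered genes with values on all 4 arrays that were measured on 2 or more of them, and calls needed an adjusted p under 0.05. It was tested on simulated data with additive effects and spreads drawn from the fit itself, which is no check of these arrays. There it recovered 56 of 100 changes of 0.5 log2 units with all spots and 85 of 100 without the defective columns. A gene that did not pass may therefore still have changed. Probes were named through the platform's table or a transcript accession (9268 of 10032 gene probes had 1 symbol). Genes given with all values were those past 1.5-fold in a comparison, those passing limma, and the highest and lowest diabetes coefficient of each class. Other genes with values were chosen after their values were seen, and 1 result of the conjugation list is not reported here. The members and lists were chosen with earlier results of these data known. The alternatives were edge spots left out, median scaling, an offset of 16, the deposited value table, no filter, no background correction, the brightest probe, a 2-fold limit, and limma without covariate, with robust or trended moderation.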

Additional observations from a re-analysis of the deposited data

Results flagged for a closer look

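Of the 52 genes measured on all 4 arrays, 4 had diabetes differences of opposite sign in the 2 genotypes, each beyond 0.0857, the spot-to-spot SD of a difference. The share of all genes beyond this limit was not computed. Opposite signs of any size were seen for 14 of the 52 genes and for 2372 of all 5909 measured genes, so they were not more frequent in this list. The difference in KO minus that in WT was 0.48 for Fmo1, -0.32 for Akr1c20, -0.26 for Aldh3b1 and -0.23 for Cyp39a1, an oxysterol hydroxylase. Fmo1 was thus lower with diabetes in WT and slightly higher in KO, and the other 3 were higher in WT and lower in KO. The KO difference of Fmo1 was 0.00 with median scaling and -0.03 in the deposited value table. Each rests on 1 array per group, and the difference was not tested.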

How the results depend on the processing

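Without the edge spots 1 gene passed for diabetes instead of 0. With median scaling the median over all genes was -0.08 in DM-WT against ND-WT, and single genes of the list moved by -0.33 (Akr1a1) to 0.03 (Gstm7). There, 6 genes were at least 1.5-fold lower instead of 1, the median difference was -0.10 instead of 0.06, 0 genes were 1.5-fold lower in DM-KO against DM-WT, and the median difference between the diabetes effects was 0.13 instead of 0.02. The deposited value table gave 4 lower genes and a median of -0.0349 in DM-WT against ND-WT, where the median over all genes was -0.0428. An offset of 16 gave 3 higher and 2 lower in DM-WT against ND-WT, 2 higher in DM-KO against ND-KO, 1 higher in ND-KO against ND-WT, and 2 lower in DM-KO against DM-WT. At 2-fold each of the 4 counts of 1 became 0. The cause was not tested, and the shares of all genes at these folds were not computed under the alternatives. No difference of at least 0.3 changed sign under another scaling (15, 8, 3 and 8 checked). Sult1a1 in DM-WT against ND-WT was 0.26 with median scaling. No paired analysis was possible because each group has 1 array. For the same reason no array could be left out: without one, no residual degree of freedom remains.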
